A study of Mus musculus with 6 samples.

Results

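Transient receptor potential (TRP) channels of the mouse dorsal root ganglion (DRG) were examined in 6 RNA sequencing libraries, 3 labelled siNC and 3 labelled siCLAP. The 9 channel genes were chosen by symbol, as channels described in sensory neurons: Trpv1, Trpv2, Trpa1, Trpm2, Trpm3, Trpm4, Trpm8, Trpc1 and Trpc6. Each had 1 row among the 48401 gene symbols of the deposited tables, and all 9 were among the 19141 genes that were tested, those with a mean of at least 1 TPM (a transcript level scaled to gene length and library total). The tissue was the L4/5 DRG, which hold the cell bodies of sensory neurons serving the hind limb, of male C57BL/6J mice aged 8 weeks. All mice had received a small interfering RNA (siRNA) intrathecally, into the fluid around the spinal cord, so the control group carried an siRNA as well. Libraries labelled siNC serve here as controls, and siCLAP was aimed at CLAP, a long intergenic noncoding RNA named with itch in the title of the study. No row is named CLAP, so its level was not analysed here and the knockdown was not checked. Nothing in the labels ties libraries to individual mice, and every p below reflects the spread among these 6 libraries, which may be technical. Dose and time after injection are not stated in those labels.

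TRP channels are cation channels that open on heat, cold, plant irritants, lipids or signalling downstream of other receptors, and several of them turn such stimuli into electrical activity at sensory nerve endings. Trpv1, the capsaicin and heat receptor, and Trpa1, the mustard oil receptor, act in pain, and each also carries itch signals started by other receptors: Trpv1 for histamine and Trpa1 for chloroquine. Many of the receptors that sensitise or open these channels act through G proteins, phospholipase C and protein kinase C.

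The libraries held 21386768 to 46317735 expected counts (read counts per gene that need not be whole), and 26004 to 27505 genes had a value above 0. Mitochondrial transcripts made up 1.31% to 1.67% of counts. The 15 pan-neuronal markers, among them Tubb3 and Avil, were all detected, so the neuronal part of the labelled tissue was present, with a summed level of 22080 to 22803 TPM in siNC and 23229 to 23839 TPM in siCLAP. Markers of the leptomeninges, the membranes around cord and roots, stood apart in some libraries, as 8 of 9 were tested, all 8 were lower in siCLAP by estimate, and their summed level was 37.8 to 163 TPM in siNC and 24.1 to 46.7 TPM in siCLAP. The summed level of 5 Hox genes of caudal segments ran from 68.5 to 83.1 TPM in siNC and from 54.5 to 71.7 TPM in siCLAP. With either level as a covariate in the fit, added after seeing the data, 0 of the 9 channels passed, as was so without a covariate. The median log2 fold change of the channels was −0.158 and −0.219, against −0.102 without a covariate. Over all genes 22 and 281 passed, against 56. Both levels ran lower in siCLAP, with overlap, so these fits of 6 libraries cannot fully separate them from the group. In bulk tissue, fewer cells of a type and less RNA per cell cannot be told apart.

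Levels were compared between channels in TPM, which is per length. In siNC the order ran from Trpv1 at 131 ± 3.15 TPM (mean ± SD, n = 3 libraries, as for every mean below) through Trpv2 at 50.01 ± 1.29 TPM, Trpa1 at 45.6 ± 1.15 TPM and Trpm8, the cold and menthol receptor, at 37.9 ± 3.13 TPM. Trpc1, a channel subunit that joins other TRPC proteins, followed at 23.8 ± 1.98 TPM, and Trpm4, a channel opened by intracellular calcium, at 21.2 ± 0.462 TPM. The lowest levels were those of Trpm3 at 16.4 ± 0.587 TPM, Trpc6 at 15.7 ± 0.902 TPM and Trpm2 at 15.3 ± 0.671 TPM. These last 3 overlapped between libraries and had no order beyond their spread, whereas every other neighbouring pair was separate in all 3 siNC libraries.

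The siCLAP libraries gave the same order, and ordering by medians in place of means left all 9 channels in place. Trpv1 stood at 123 ± 9.87 TPM, Trpv2 at 42.4 ± 2.26 TPM and Trpa1 at 42.0 ± 1.66 TPM. Trpv2 and Trpa1 now overlapped, with Trpv2 the higher in 2 of 3 libraries. Trpm8 stood at 35.4 ± 3.25 TPM, Trpc1 at 25.5 ± 0.0815 TPM and Trpm4 at 20.9 ± 1.18 TPM. Trpm3, at 14.1 ± 0.722 TPM, Trpc6, at 13.1 ± 1.32 TPM, and Trpm2, at 12.4 ± 0.390 TPM, again overlapped with their neighbours.

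**Figure D1:**
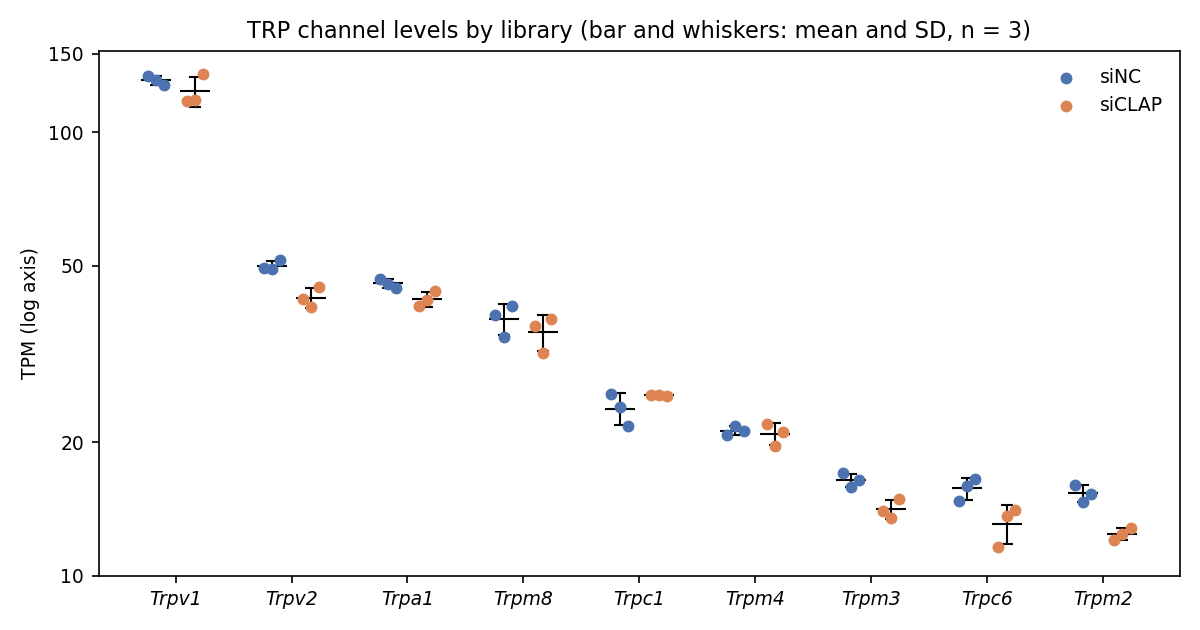
TPM (log axis) of the 9 TRP channels in each library, siNC in blue and siCLAP in orange, with the mean and SD of 3 libraries. Trpv1 lies far above the rest in both groups, and the siCLAP points of Trpv2, Trpa1, Trpm3, Trpc6 and Trpm2 all lie below the siNC points.

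The design asks which transcripts of the ganglion differ between siCLAP and siNC. None of the 9 channels passed the test, edgeR's quasi-likelihood test at a Benjamini-Hochberg adjusted p under 0.05, which called 56 of all 19141 genes (0.293%, 14 higher and 42 lower). Estimates were negative for 8 channels and positive for Trpc1, with a median log2 fold change of −0.10 against −0.0018 over all genes tested. At an unadjusted p under 0.05, in the lower direction, stood Trpm2, Trpv2, Trpm3 and Trpc6, 4 of 9, where 8.75% of all genes did. The count over all genes depended on single libraries, being 0 when siCLAP-1 was left out, 4 for siNC-3, 157 for siNC-2 and 340 for siCLAP-3.

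Groups were compared in CPM, counts scaled to library size with TMM (a library size correction robust to a few abundant genes) and not by gene length. On this scale 5 of the 9 channels had groups that did not overlap, against 21.5% of all genes. They were Trpv2, Trpm2, Trpm3 and Trpc6, lower in siCLAP, against 10.7% of all genes, and Trpc1, higher, against 10.9%. Other scales, chosen after seeing the data, moved the channels at the margin: with TPM Trpa1 was separate and Trpc1 was not, which left 5 lower and 0 higher against 12.2% and 9.39% of all genes. With relative log expression factors (10.7% of all genes lower and 10.9% higher) or plain library totals (10.4% and 11.3%) Trpa1 was separate in addition to the 5.

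Trpm2, which opens on oxidative stress and ADP-ribose and takes part in warmth sensing, had the smallest p of the 9. Its level was 43.9, 41.2 and 42.2 CPM in siNC libraries 1, 2 and 3, and 33.8, 34.7 and 35.9 CPM in siCLAP libraries 1, 2 and 3, the order used for every channel below. Every siCLAP library lay below every siNC library, with a gap wider than the range within either group. The log2 fold change was −0.29 ± 0.05 (SE; 95% interval −0.41 to −0.17), a change of −18.1% (edgeR adjusted p = 0.0560). This missed the threshold narrowly. DESeq2, which called 611 genes (3.19%, 238 higher and 373 lower), called Trpm2 with an adjusted p of 0.00516, and the adjusted p ran from 0.00516 to 0.410 over 20 alternative settings. Leaving out siNC-2 or siCLAP-3 also brought it past the threshold, with edgeR adjusted p = 0.0486 and 0.0394. Leaving out siNC-1, siNC-3, siCLAP-1 or siCLAP-2 did not, with edgeR adjusted p = 0.121, 0.227, 0.310 and 0.109.

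Trpm3, a heat channel that also opens on the steroid pregnenolone sulphate, stood at 44.0, 42.0 and 42.7 CPM in siNC. In siCLAP it stood at 37.1, 35.5 and 39.4 CPM. The groups did not overlap, with siCLAP-3 the closest to the controls. The log2 fold change was −0.20 ± 0.06 (95% interval −0.32 to −0.08; edgeR adjusted p = 0.117).

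Trpv2, a close relative of Trpv1 that is found largely in medium and large sensory neurons, stood at 56.6, 57.7 and 59.4 CPM in the siNC libraries. In siCLAP it stood at 49.3, 47.0 and 52.4 CPM, and siCLAP-3 was again nearest to siNC. The log2 fold change was −0.22 ± 0.05 (95% interval −0.34 to −0.10), a change of −14.3% (edgeR adjusted p = 0.0885). DESeq2 called it (adjusted p = 0.0283), and without siCLAP-3 edgeR did as well (adjusted p = 0.0465), within a range of 0.0248 to 0.549 over the alternatives. Without any other single library edgeR did not call it, with adjusted p from 0.0948 (siNC-2) to 0.365 (siCLAP-1).

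Trpc6, a channel opened by diacylglycerol, stood at 18.1, 20.02 and 20.4 CPM in siNC and at 14.6, 17.01 and 17.6 CPM in siCLAP. The gap between the highest siCLAP and the lowest siNC library, 17.6 and 18.1 CPM, was small against the spread within either group. The log2 fold change was −0.25 ± 0.09 (95% interval −0.44 to −0.06; edgeR adjusted p = 0.183).

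Trpc1 was the 1 channel with a positive estimate. It stood at 44.1, 42.4 and 37.6 CPM in siNC, with siNC-3 the lowest, and at 45.1, 44.9 and 44.7 CPM in siCLAP, where the libraries were nearly level. The log2 fold change was 0.11 ± 0.06 (95% interval −0.02 to 0.25; edgeR adjusted p = 0.380). The separation of the groups was lost in TPM, where siNC-1 (25.6 TPM) lay above siCLAP-3 (25.5 TPM).

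Trpv1, Trpa1 and Trpm8, the channels that mark heat, irritant and cold sensing, differed less. Trpv1 stood at 181, 181 and 173 CPM in siNC and at 162, 162 and 186 CPM in siCLAP. Its groups overlapped through siCLAP-3, the highest of the 6 libraries, and the log2 fold change was −0.07 ± 0.06 (95% interval −0.19 to 0.06; edgeR adjusted p = 0.569). Trpa1 stood at 74.9, 74.8 and 71.7 CPM in siNC and at 66.6, 68.2 and 71.7 CPM in siCLAP, so that siCLAP-3 met the lowest siNC library. Its log2 fold change was −0.10 ± 0.05 (95% interval −0.21 to 0.00; edgeR adjusted p = 0.309).

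Trpm8 stood at 60.5, 55.1 and 63.6 CPM in siNC and at 58.5, 50.4 and 60.4 CPM in siCLAP, with broad overlap. The log2 fold change was −0.08 ± 0.07 (95% interval −0.24 to 0.09; edgeR adjusted p = 0.635), and its sign turned in 2 of 20 alternatives. Trpm4 stood at 33.2, 35.5 and 34.1 CPM in siNC and at 35.9, 31.9 and 34.4 CPM in siCLAP, where siCLAP-1 was the highest and siCLAP-2 the lowest of all 6. Its log2 fold change was −0.01 ± 0.06 (95% interval −0.14 to 0.13; edgeR adjusted p = 0.965), and its sign turned in 3 of 20 alternatives. The intervals of Trpv1, Trpm8 and Trpm4 leave out a fall as large as the estimate for Trpm2, but a fall of up to 0.24 on the log2 scale, in the case of Trpm8, lay within them.

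**Figure D2:**
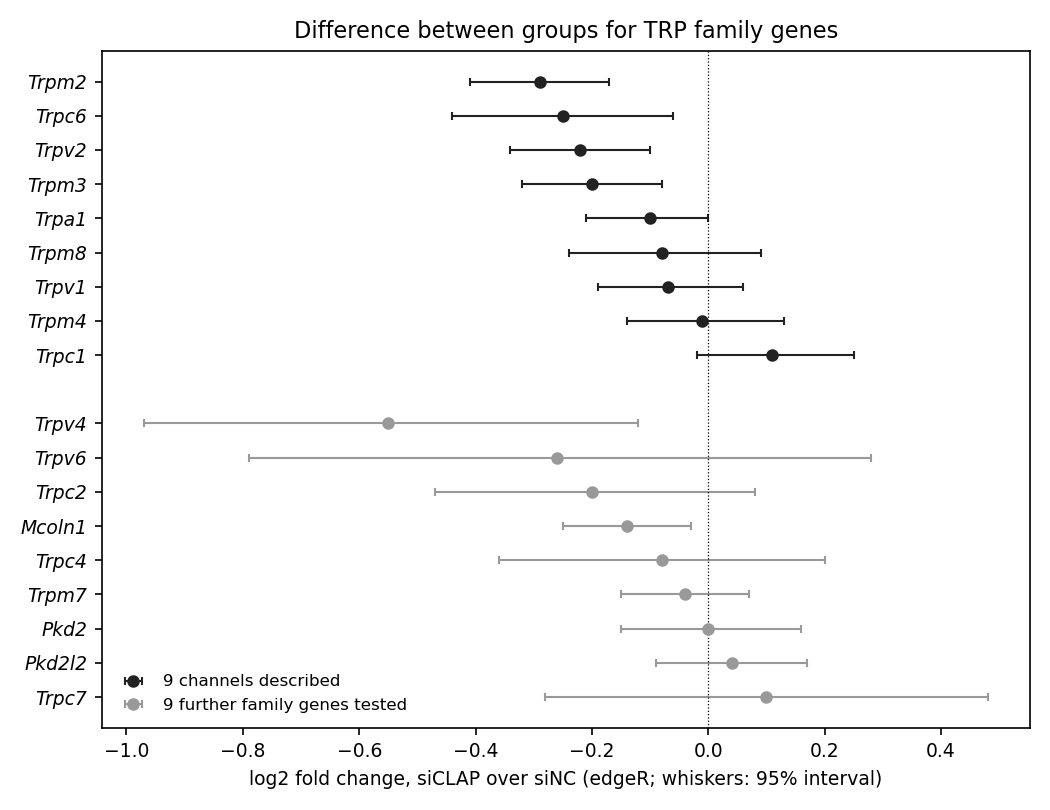
Log2 fold change of siCLAP over siNC with its 95% interval from edgeR, for the 9 channels (black) and 9 further TRP family genes that were tested (grey). The intervals of Trpm2, Trpc6, Trpv2 and Trpm3 lie below 0, as do those of Trpv4 and Mcoln1, and no gene shown passed after adjustment over all genes.

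Scaling to the neurons made the estimates more negative. The pan-neuronal genes used as the reference themselves had higher estimates in siCLAP for 12 and lower for 3. Of them 8 were higher without overlap and 2 lower in TMM-scaled CPM, against 10.9% and 10.7% of all genes. When libraries were scaled to the summed counts of the 15 pan-neuronal genes, the median of all genes moved by −0.0732 on the log2 scale, and 639 genes passed (3.34%, of which 4.23% higher, against 25.0% higher among the 56). On this scale Trpm2, Trpv2 and Trpm3 passed edgeR's test, with log2 fold changes of −0.36, −0.30 and −0.27 and adjusted p of 0.0207, 0.0269 and 0.0329. Trpv1 and Trpa1 joined the channels whose groups did not overlap, all 6 of them lower, and Trpc1 left them. With this scaling 22.4% of all genes were lower without overlap and 3.31% higher, so that the direction of the 6 was also that of most separate genes. The scaling changes only the size set for each library, so the estimates of all genes, Trpm2 among them, moved by about the same amount.

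**Figure D3:**
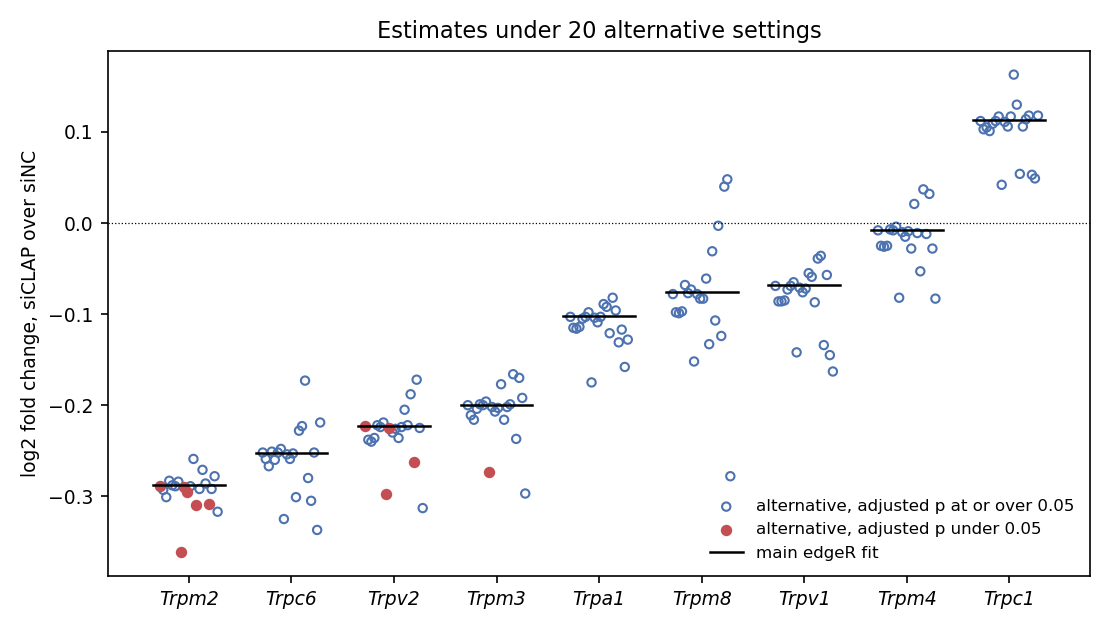
Log2 fold change of each channel (vertical axis) in the edgeR fit of the report (black bar) and in 20 alternative settings (circles), filled in red where the adjusted p was under 0.05. Filled circles occur for Trpm2 (6), Trpv2 (4) and Trpm3 (1), and points of Trpm8 and Trpm4 lie on both sides of 0.

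The channels were also summed, and their composition was described within each library. The 9 channels summed to 363, 352 and 355 TPM in siNC and to 322, 317 and 350 TPM in siCLAP, so that the siCLAP libraries were lower without overlap, siCLAP-3 only slightly. This sum is scaled to the library total, as TPM is, whereas scaling cancels out in the shares and ratios that follow. Trpv1 supplied 36.7 ± 0.630% of the sum in siNC and 37.5 ± 1.04% in siCLAP, with overlap. The shares of Trpv2 (14.02 ± 0.452% and 12.9 ± 0.163%), Trpm2 (4.29 ± 0.122% and 3.77 ± 0.131%) and Trpm3 (4.60 ± 0.0954% and 4.29 ± 0.0549%) were lower in siCLAP without overlap. The share of Trpc1 was higher without overlap, at 6.67 ± 0.498% in siNC and 7.77 ± 0.433% in siCLAP. The shares sum to the whole and so are not independent of each other.

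Ratios between single channels, in pairs chosen after their values were seen, are given as a description. Trpc1 transcripts stood to those of Trpm2 as 1.601, 1.64 and 1.42 to 1 in siNC and as 2.13, 2.06 and 1.99 to 1 in siCLAP. The ratio of Trpv1 to Trpm2 was 8.37, 8.91 and 8.36 in siNC and 9.77, 9.53 and 10.5 in siCLAP. The ratio of Trpa1 to Trpv1 was 0.349, 0.348 and 0.348 in siNC and 0.345, 0.354 and 0.325 in siCLAP. The proportion of mustard oil to capsaicin receptor transcripts was nearly level in the 3 siNC libraries, and the siCLAP libraries lay on both sides of it.

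**Figure D4:**
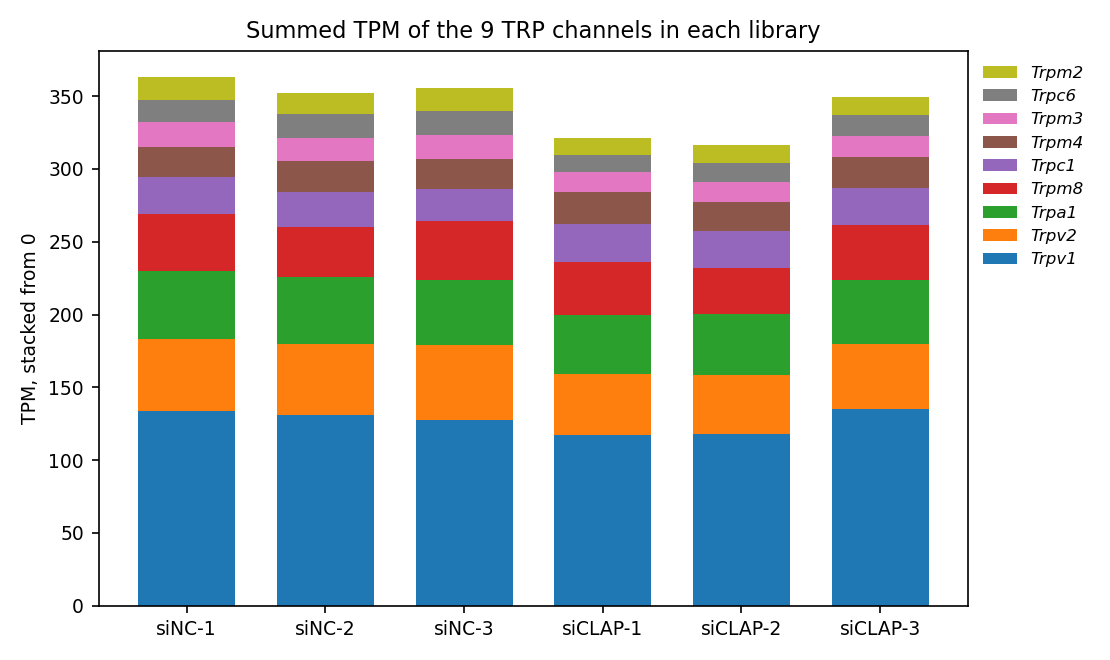
TPM of the 9 channels stacked from 0 in each library. The siNC sums are 352 to 363 TPM and the siCLAP sums 317 to 350 TPM, with Trpv1 the largest segment in all 6 libraries.

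Trpm2, Trpm3 and Trpv2 also varied together across libraries. Over the 6 libraries Pearson's r of log2 CPM was 0.95 for Trpv2 with Trpm3, 0.95 for Trpm2 with Trpm3 and 0.91 for Trpv2 with Trpm2. Trpa1 had an r of 0.86 with Trpv1, and Trpc1 was negative with all 8 others, from −0.09 with Trpm4 to −0.73 with Trpv2 and Trpc6. These values are descriptions over 6 points that share depth and scaling, and they include the difference between the groups.

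**Figure D5:**
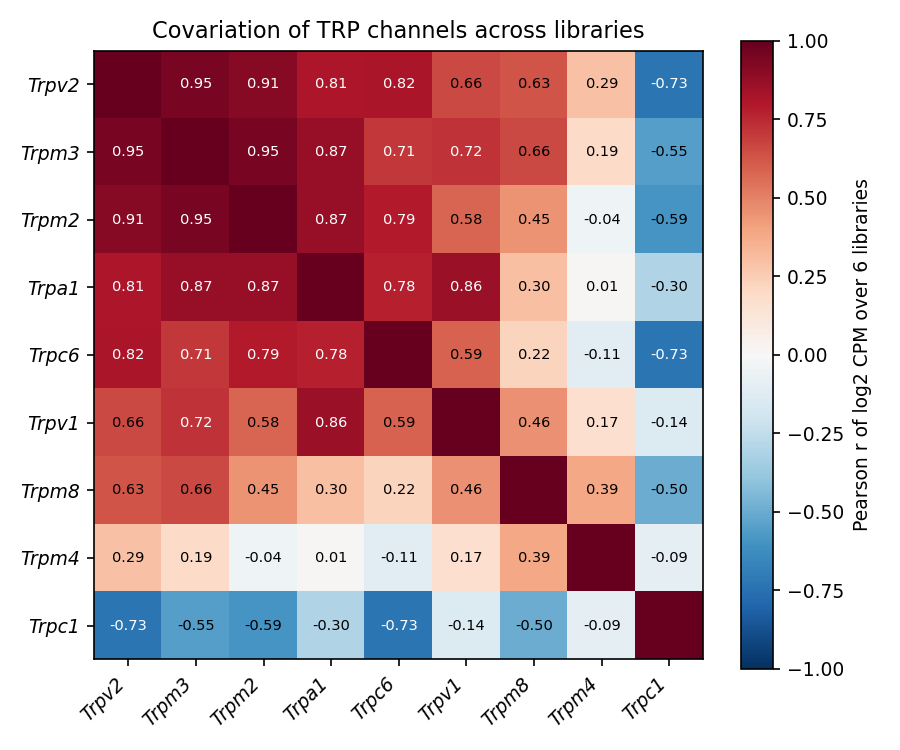
Pearson's r of log2 CPM for each pair of channels over the 6 libraries, from −1 (blue) to 1 (red). Trpv2, Trpm3 and Trpm2 form the block of highest values, 0.91 to 0.95, and the row of Trpc1 is negative throughout.

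Among 19122 genes outside the TRP family, those most like each channel were named by the highest r. For Trpv2 they were Mrgprd, the receptor that marks non-peptidergic nociceptors, and Ppp1r13b, both at 0.995. For Trpm3 they were Caskin1 (1.0 after rounding) and Pirt, a membrane protein known to regulate Trpv1 and Trpm8 (0.997). For Trpm2 they were the kinase gene Rps6ka2 (0.996) and Ppp2r2c (0.994), for Trpv1 Gm25364 (0.999) and Exosc7 (0.995), and for Trpa1 Plrg1 (0.994) and Pias1 (0.993). Trpm4 was most like Tpcn2, an ion channel of endosomes and lysosomes (0.994), and Gm10037 (0.983). Trpm8 was most like 9530026P05Rik (0.995) and Sugp2 (0.992), Trpc1 most like Rnf26 and Gm2962 (0.996 each), and Trpc6 most like Tmc4 (0.994) and Klf2 (0.992). High values are common over 6 points, as from 55 genes (Trpm4) to 829 genes (Trpm3) had an r above 0.9 with a channel.

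A list of 18 other TRP family genes, drawn up with earlier results known, held 9 that were tested, of which 0 passed. Estimates were lower for 6 and higher for 3, with a median of −0.08. Groups did not overlap for 1, Mcoln1, against 21.5% of all genes. Mcoln1, a lysosomal channel, stood at 78.5 ± 3.74 TPM in siNC and 70.3 ± 1.94 TPM in siCLAP (log2 fold change −0.14 ± 0.05; edgeR adjusted p = 0.195).

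Trpv4, an osmosensitive channel found in many non-neuronal cells, was low, at 2.67 ± 0.592 TPM in siNC and 1.78 ± 0.341 TPM in siCLAP, and overlapped (log2 fold change −0.55 ± 0.19; edgeR adjusted p = 0.195). Pkd2l2 (25.5 and 25.9 TPM), Trpm7, a channel fused to a kinase (19.7 and 19.0 TPM), and Pkd2 (14.2 and 13.9 TPM) overlapped between siNC and siCLAP. Trpc4 (4.83 and 4.56 TPM), Trpc2 (2.68 and 2.33 TPM), Trpc7 (2.19 and 2.30 TPM) and Trpv6 (1.13 and 0.935 TPM) overlapped as well. Trpv3, Trpv5, Trpm1, Trpm5, Trpm6, Trpc5, Mcoln2, Mcoln3 and Pkd2l1 lay below the TPM minimum and were not tested.

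Of the receptors known to sensitise or use TRP channels, 21 of 24 were tested, 0 rose and 2 fell. The median log2 fold change was −0.06, and over all genes 0.293% passed the test, 14 higher and 42 lower. Estimates were lower for 12 of the 21 and higher for 9. Groups did not overlap for 8, of which 5 were lower and 3 higher, against 21.5% of all genes in either direction. Il6st, the shared signalling subunit of interleukin-6 type receptors, fell from 668 ± 40.6 to 510 ± 28.1 CPM (log2 fold change −0.39 ± 0.06, edgeR adjusted p = 0.0268). Mrgprd fell from 255 ± 7.97 to 197 ± 17.9 CPM (−0.37 ± 0.06, edgeR adjusted p = 0.0396). Osmr, a receptor subunit for oncostatin M and interleukin-31, stood at −0.26 ± 0.05 (edgeR adjusted p = 0.0524), and Htr2a, a serotonin receptor, at −0.46 ± 0.09 (0.0693).

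In the list of G protein and lipid signalling, 23 of 26 were tested, 0 rose and 2 fell, and groups did not overlap for 12, of which 9 were lower and 3 higher (median −0.05), against 21.5% of all genes in either direction and 0.293% past the test. Plcb3, the phospholipase C that couples itch receptors to Trpv1, stood at 746, 787 and 771 CPM in siNC and at 549, 574 and 584 CPM in siCLAP. It fell by 0.43 ± 0.04 on the log2 scale (edgeR adjusted p = 0.00621). Prkcd, a protein kinase C, fell from 362 ± 10.6 to 293 ± 9.52 CPM (log2 fold change −0.31 ± 0.04, edgeR adjusted p = 0.0268). Dgkz, a kinase that removes diacylglycerol, stood at −0.26 ± 0.05 (edgeR adjusted p = 0.0557), and Prkca, another protein kinase C, at −0.23 ± 0.05 (0.0704). The 3 higher without overlap, named after their values were seen, were Cdk5, a neuronal kinase (0.17 ± 0.06, edgeR adjusted p = 0.167), Prkaca, the catalytic subunit of protein kinase A (0.12 ± 0.05, 0.262), and Plcd4, another phospholipase C (0.10 ± 0.05, 0.348).

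Among partner proteins of the channels, 25 of 26 were tested, 0 rose and 1 fell, with a median of 0.00. Over all genes 0.293% passed the test. Groups did not overlap for 5 of the 25, 4 lower and 1 higher, against 21.5% of all genes in either direction. The one that fell was Camk2a, a calcium-dependent kinase, from 295 ± 14.5 to 239 ± 4.26 CPM (log2 fold change −0.31 ± 0.05, edgeR adjusted p = 0.0282). Pirt stood at −0.14 ± 0.04 (edgeR adjusted p = 0.148), without overlap, and Stim2, a calcium sensor of the endoplasmic reticulum, at 0.15 ± 0.05 (0.168), also without overlap. Kif13b, a kinesin motor, stood at −0.25 ± 0.09 (0.174) with overlap.

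Of 8 neuropeptide genes whose products are released when these channels open, 1 fell and 0 rose. The median was 0.16, and over all genes 0.293% passed the test. The gene that fell was Sst, which encodes somatostatin, at 3.43, 4.06 and 2.79 CPM in siNC and 1.23, 0.913 and 1.09 CPM in siCLAP (log2 fold change −1.67 ± 0.19, edgeR adjusted p = 0.0141). Tac1, which encodes substance P, stood at 0.34 ± 0.07 (edgeR adjusted p = 0.0766), Adcyap1, which encodes the peptide PACAP, at 0.34 ± 0.08 (0.0907), and Nts, which encodes neurotensin, at 0.61 ± 0.16 (0.101). These 3 were higher in siCLAP without overlap. In this list groups did not overlap for 5 of 8 genes, 4 higher and 1 lower, against 10.9% and 10.7% of all genes. No gene named above passed without siCLAP-1, where edgeR called 0 genes and 1960 stood at an unadjusted p under 0.05.

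Markers of the neuron classes that carry the channels were set beside them. Each marker list here stands beside 56 of all 19141 genes past the test (0.293%, 14 higher and 42 lower). In the non-peptidergic nociceptor list, all 11 estimates were lower, 4 genes fell (Scn11a, Plxnc1, Mrgprd and Gfra2), the median was −0.28, and the summed level was 1858 to 1958 TPM in siNC and 1534 to 1589 TPM in siCLAP. The peptidergic list of 10 genes, which holds Trpv1 itself, had 0 genes past the test and a median of 0.05. The cold neuron list of 6 genes, which holds Trpm8, had 0 past the test and a median of 0.02. Its summed level was 72.6 to 77.6 TPM in siNC and 68.3 to 74.8 TPM in siCLAP. Trpm8 itself made up 34.5 to 40.6 TPM of this in siNC and 31.8 to 37.9 TPM in siCLAP, so the sum is not independent of the channel. In the pruriceptor list, 2 of 10 fell, Plcb3 and Sst, with a median of −0.21. Groups did not overlap for 4 of its genes that were lower and 1 that was higher, Nts, against 10.7% and 10.9% of all genes. In the C-fibre touch list, 1 of 6 fell, Gfra2 (median −0.15).

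In the list of 12 myelinated neuron markers, 1 rose, the proprioceptor gene Pvalb (0.45 ± 0.06, edgeR adjusted p = 0.0215), with a median of 0.15. The list was mixed, with 8 estimates higher and 4 lower. Groups did not overlap for 3 genes that were higher and 2 that were lower, against 10.9% and 10.7% of all genes. The 15 pan-neuronal genes had a median of 0.09 and 0 past the test, against 0.293% of all genes. The part of the neuron classes in the channel values was not tested.

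Markers of non-neuronal cells were read in the same way, beside the same 0.293% of all genes past the test. Ednrb, which encodes an endothelin receptor, rose by 0.45 ± 0.07 on the log2 scale (edgeR adjusted p = 0.0317) and was 1 of 9 satellite glia genes past the test (median 0.10). In that list 7 estimates were higher and 2 lower. Groups did not overlap for 2 genes that were higher and 1 that was lower, against 10.9% and 10.7% of all genes. Egr2, a transcription factor of myelination, fell by 0.76 ± 0.13 (0.0389) as 1 of 10 Schwann cell genes (median −0.19). No macrophage, endothelial, mural, fibroblast, mast cell, leptomeningeal or spinal cord glia gene passed, with medians of 0.12, −0.05, −0.12, 0.00, −0.18, −1.44 and 0.45 over 9, 8, 8, 6, 5, 8 and 2 genes. Mural markers, set beside Trpc6 because smooth muscle also expresses it, summed to 153 to 165 TPM in siNC and 133 to 159 TPM in siCLAP, overlapping. None of the listed marker genes was at 0 in all libraries.

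The channel genes lie at separate places in the genome (GRCm38, GENCODE M21, as for all gene positions). Trpv1 (chr11:73234292-73261242, plus strand) and Trpv2 (chr11:62574486-62600515, plus strand) share chromosome 11. Trpc1 (chr9:95705082-95750375, minus strand) and Trpc6 (chr9:8544142-8680741, plus strand) share chromosome 9, and Trpa1 (chr1:14872648-14918862, minus strand) and Trpm8 (chr1:88277661-88389293, plus strand) share chromosome 1. Trpm2 lies at chr10:77907722-77970563 on the minus strand and Trpm4 at chr7:45302632-45333780 on the minus strand. Trpm3, at chr19:22139046-22995410 on the plus strand, spans 856.4 kb, against 26.0 to 136.6 kb for the others. Reads count towards exons of these genes, and the library kit does not mark strand. For Trpm8, 388 exon bases (8.2% of its exon bases) are shared with the antisense gene 4930453O03Rik, so reads of the pair cannot be told apart there, and that gene was given 113 to 250 counts per library. Exons shared with other genes made up at most 1.4% of exon bases for any single overlap in Trpm2 and Trpm3.

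Promoter windows from RefSeq (GRCm38.p6, 250 bases before to 50 after the gene start) were matched by symbol for 7 of the 9 channels: Trpv1, Trpv2, Trpm2, Trpm3, Trpm8, Trpc1 and Trpc6. Those of Trpm2, Trpm3 and Trpv2 are shown because their r with each other over all 6 libraries was high. That of Trpc1 is shown because its r with them was negative. These r values include the difference between the groups. They run 5′ to 3′ on the gene's strand and are in lower case, with capitals for matches on either strand to any of 6 motifs that were searched.
Trpm2 (chr10:77969823-77970122, minus strand): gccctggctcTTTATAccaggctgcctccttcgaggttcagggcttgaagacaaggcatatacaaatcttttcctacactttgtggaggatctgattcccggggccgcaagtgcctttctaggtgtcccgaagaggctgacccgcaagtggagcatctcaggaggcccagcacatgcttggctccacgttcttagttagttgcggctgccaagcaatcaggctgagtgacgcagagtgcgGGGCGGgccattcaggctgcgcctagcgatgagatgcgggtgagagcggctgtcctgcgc
Trpm3 (chr19:22138796-22139095, plus strand): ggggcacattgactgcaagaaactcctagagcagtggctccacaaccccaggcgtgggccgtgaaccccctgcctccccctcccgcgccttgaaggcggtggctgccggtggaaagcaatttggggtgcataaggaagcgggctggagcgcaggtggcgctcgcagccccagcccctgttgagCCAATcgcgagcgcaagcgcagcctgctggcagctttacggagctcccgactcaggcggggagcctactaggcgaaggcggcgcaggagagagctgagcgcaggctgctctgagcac
Trpv2 (chr11:62574236-62574535, plus strand): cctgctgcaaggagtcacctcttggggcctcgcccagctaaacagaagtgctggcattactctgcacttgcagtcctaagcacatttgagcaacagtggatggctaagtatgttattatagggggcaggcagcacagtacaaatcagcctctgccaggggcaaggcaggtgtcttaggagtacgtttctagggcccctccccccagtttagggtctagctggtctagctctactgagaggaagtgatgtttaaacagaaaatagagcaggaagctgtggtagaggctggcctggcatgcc
Trpc1 (chr9:95750299-95750598, minus strand): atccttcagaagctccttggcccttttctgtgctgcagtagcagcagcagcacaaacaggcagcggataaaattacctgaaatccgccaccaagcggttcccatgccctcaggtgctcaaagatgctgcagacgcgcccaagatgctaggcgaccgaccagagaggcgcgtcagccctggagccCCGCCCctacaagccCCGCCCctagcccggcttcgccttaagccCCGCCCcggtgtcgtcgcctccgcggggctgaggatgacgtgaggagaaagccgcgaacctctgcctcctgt

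The 3 windows of Trpm2, Trpm3 and Trpv2 had no motif in common. The Trpm2 window held 1 TATA box and 1 GC box match, that of Trpm3 held 1 CCAAT box, and that of Trpv2 held none of the 6. The Trpc1 window held 3 GC boxes. The GC box was searched as GGGCGG, letters that occurred in 35.7% of all 32851 RefSeq windows of this length. The TATA box, searched as TATAAA, occurred in 13.6% of these windows, and the CCAAT box, searched by the letters of its name, in 37.4%. The recognition letters of the glucocorticoid receptor, TGTTCT, occurred in 19.0% of windows. The E-box, searched as CACGTG, occurred in 7.15% and the cyclic AMP response element, searched as TGACGTCA, in 1.79%. The motifs share no match with one another in the windows shown. CG pairs numbered 15 in Trpm2, 21 in Trpm3, 22 in Trpc1 and 2 in Trpv2, against a median of 7. RefSeq gave 3 windows for Trpv2 and 2 for Trpm3, of which the one at the GENCODE start is shown, and the RefSeq start within the Trpm2 window lies 691 bases from the GENCODE start. A match is a description of letters, and no match says only that these letters are not in the window.

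Trpm3 also hosts a microRNA gene, Mir204, within an intron, and Trpm1, which is not expressed at a testable level in these libraries, hosts its relative Mir211. Their mature forms, shown because they share a seed (bases 2 to 8, in capitals), are RefSeq sequences on GRCm38.p6.
miR-204-5p (chr19:22750610-22750631, plus strand): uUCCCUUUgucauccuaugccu
miR-211-5p (chr7:64205831-64205852, plus strand): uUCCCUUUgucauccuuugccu
The seed is UCCCUUU in both. Mir204 had 1, 0 and 1 counts in siNC and 0 in each siCLAP library, Mir211 had 0 in all 6, and Trpm1 had 1, 1 and 1 counts in siNC and 0, 0 and 2 in siCLAP, all at or under 3 counts. Standard RNA libraries are not designed to capture mature microRNAs, whose levels were not analysed here.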

How the data were processed

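RNA from L4/5 DRG was sequenced in 3 siNC and 3 siCLAP libraries made with an NEBNext Ultra kit, which does not mark strand, per the labels' protocols. The submitters' processing notes list mm10 as the build, and the tools FastQC 0.11.8, HISAT2 2.1.0 and featureCounts 1.6.2. Which annotation, strand setting and handling of multiply matching reads applied is not given in the sources used here. Per library, the authors deposited TPM values and expected counts for 48401 symbols. Of the deposited expected counts above 0, 36.5% to 41.6% per library were whole within 1e-06, so most were fractional.

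Expected counts were rounded and tested with edgeR 4.0.16 (R 4.3.3, quasi-likelihood test, TMM, no covariate) over genes whose mean reached 1 TPM, with Benjamini-Hochberg adjustment over all 19141 genes and a threshold of 0.05. Depth ran from 21386768 to 46317735 counts, and intervals are 95% intervals from the spread between libraries. The smallest p of an exact permutation test of 3 against 3 is 0.1, so models across all genes were used instead. Alternatives were DESeq2 1.42.0, limma 3.58.1 on log2 TPM with a pseudocount of 0.1, 0.5 or 1, voom, other scalings and TPM minimums, a replicate block and left-out libraries. Covariates for leptomeningeal or caudal Hox level, and the count of groups without overlap on other scales, were chosen after seeing the data.

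The channels and the 22 gene lists (237 genes) were chosen with earlier results of these data known. The text names all 9 channels, the listed TRP family genes, list members that passed, up to 4 members of each TRP-related list with the smallest p, and the 2 genes most alike to each channel. Cdk5, Prkaca, Plcd4, 4930453O03Rik, Mir204 and Mir211 were named after their values were seen. Some items are not reported here. Gene positions are from GENCODE M21 and sequences from RefSeq. Libraries of a group differed by more than counting noise (mean chi-square per gene 4.07 to 9.34), so none was a repeat deposit. The scripts were tested on simulated counts.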

Additional observations from a re-analysis of the deposited data

How the results depend on the processing

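In 20 alternative settings, 164 of 180 log2 fold changes of single channels kept their direction and their side of the threshold, 11 moved past it and 5 turned sign. Against 0 channels and 56 genes past edgeR's test (0.293% of 19141), DESeq2 called 2 channels and 611 genes (3.19%), and pan-neuronal scaling 3 and 639 (3.34%). Without a TPM minimum 2 channels and 835 of 30347 genes passed, and with a minimum of 5 TPM 1 channel and 114 of 13815 genes. Limma on log2(TPM + 0.1), (TPM + 0.5) and (TPM + 1) called 0 channels and 0 genes, with 3017, 3028 and 3040 genes at an unadjusted p under 0.05. With 1 library left out, counts ran from 0 to 2 channels and from 0 to 340 genes, and the median of the channels from −0.134 to −0.089. The replicate block called 0 channels (Trpm2 adjusted p = 0.0501) and 203 genes. The replicate numbers are not taken as pairs, because deviations of same-numbered libraries correlated at 0.066, 0.008 and −0.044, and 3 of 6 libraries correlated best with their own number. Without siNC-3 and siCLAP-2, the libraries with high interferon genes in an earlier account of these data, 13 genes passed. With the leptomeningeal level as a covariate 22 genes passed, with the caudal Hox level 281, and 0 channels with either. The median of the channels, −0.102, was −0.175 with pan-neuronal scaling, −0.158 with the leptomeningeal and −0.219 with the caudal Hox covariate.

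The sign of Trpm4 turned without siNC-2 (0.021), without siCLAP-2 (0.037) and without siNC-3 and siCLAP-2 (0.032), and its values with 1 library left out ran from −0.053 to 0.037. The sign of Trpm8 turned without siNC-3 and siCLAP-2 (0.04) and with the leptomeningeal covariate (0.048), and it stood at −0.278 with the caudal Hox covariate. Over the same settings Trpm2 ran from −0.36 to −0.26, Trpv2 from −0.31 to −0.17, Trpm3 from −0.30 to −0.17, Trpc6 from −0.34 to −0.17, Trpa1 from −0.17 to −0.08, Trpv1 from −0.16 to −0.04 and Trpc1 from 0.04 to 0.16. The cause of these differences was not tested.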
